A study of Porolithon cf. onkodes and Sporolithon durum with 38 samples.

Results

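The comparison described here is that of warm and ambient seawater in Porolithon cf. onkodes (called P. onkodes), a reef-building alga, over both pH levels of the experiment. Its members are 17 of the 38 labelled samples of the series: 9 libraries from fragments kept at 29.5 °C and 8 from fragments kept at 27.2 °C. The fragments had been held for 3 months in 1 of 4 treatments. The warm libraries were PO6, PO7, PO12, PO15 and PO19 from T + pH (29.5 °C, pH 7.7) and PO1, PO2, PO8 and PO18 from T (29.5 °C, pH 8.0). The cooler ones were PO3, PO5, PO11 and PO14 from pH (27.2 °C, pH 7.7) and PO4, PO10, PO16 and PO17 from the control (27.2 °C, pH 8.0). A library was assigned by the treatment in its label, and temperature was tested in an additive model in which the pH level was a covariate. The labels give pigmented tissue as the source. Each library is numbered by its fragment, and p-values measure the spread between these fragments. Seawater was heated and acidified in sumps that fed the experimental tanks, and the labels do not give which fragments shared them. Differences between sumps or tanks were therefore not separated from the treatment. In bulk tissue of this kind, fewer cells of a type and less RNA per cell cannot be told apart. The labelled samples PO9 and PO13 were not analysed here.

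Crustose coralline algae are red algae that deposit calcium carbonate in their cell walls and cement the reef framework. Photosynthesis in red algae relies on phycobiliproteins as light-harvesting pigments, and these pigments sit on the photosynthetic membranes of the plastid. Carbon fixed by the Calvin cycle is stored as floridean starch, and the oxygenation of RuBisCO feeds the photorespiratory pathway, in which glycine is broken down in mitochondria.

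mRNA had been counted by CEL-Seq2, which tags the 3′ end of each cDNA molecule with a unique molecular identifier (UMI), so that a count stands for a molecule. The deposited table held counts for 118126 transcripts of a de novo assembly, of which the 29276 with at least 5 counts in total were tested. The total of a library ranged between 78142 and 3012292 counts in the 9 warm libraries (median 739996) and between 159937 and 2629626 in the 8 cooler ones (median 395136). The log10 totals differed by 0.145 (two-sided exact permutation test, p = 0.547), and the number of detected transcripts by 1927 (exact permutation test, p = 0.594), both higher at 29.5 °C. Levels are given as CPM, counts scaled to a common library size after TMM normalization. Transcripts whose best match is a bacterial translation protein were not uniform. An attached microbiome could bring such transcripts into a library, but a match does not give the organism, and their origin was not tested. The 3 transcripts that match them summed to between 204 and 947 CPM at 29.5 °C (median 533) and between 717 and 1068 CPM at 27.2 °C (median 982), and their part in the results was not tested.

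Over both pH levels, 355 transcripts from 278 Trinity genes passed edgeR's quasi-likelihood test for temperature at a Benjamini-Hochberg FDR under 0.05 with a log2 fold change beyond 0.3 in either direction. They were 1.21% of the transcripts tested, and 3171 transcripts had an unadjusted p below 0.05 (10.8%). Of the 355, 35 were higher at 29.5 °C (0.120% of those tested) and 320 were lower (1.09%). The median log2 fold change was 2.08 among the higher ones and -3.63 among the lower ones, beside 0.03 over all transcripts tested. DESeq2 with the same model called 168 transcripts (0.574%), 35 higher and 133 lower, so that 20.8% of its calls were higher, against 9.86% of those of edgeR. It called 111 of the 355, 22 of the higher and 89 of the lower ones. For 198 others, 192 of them lower, it gave no adjusted p, and for 46 its adjusted p or fold missed the threshold. All 355 had the same direction in both fits. In a single simulation with planted changes of 2-fold and 4-fold, edgeR's false calls outnumbered its true ones and those of DESeq2 did not. The planted changes were smaller than most of those called lower and lay in transcripts with more counts. The ratio of false to true calls therefore does not carry over to the 355. The false calls of edgeR, however, lay in transcripts simulated without a change. Their median total was above that of all simulated transcripts tested. How many of the 355 are false was not estimated, and a call by edgeR alone is taken here as weaker evidence. A protein name in the study's tables was carried by 31 of the 355, 12 higher and 19 lower, beside 178 of all transcripts tested. Those tables had been selected on these libraries, so that the share with a name is not independent evidence. Reads can be shared among the isoforms of 1 Trinity gene.

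**Figure D1:**
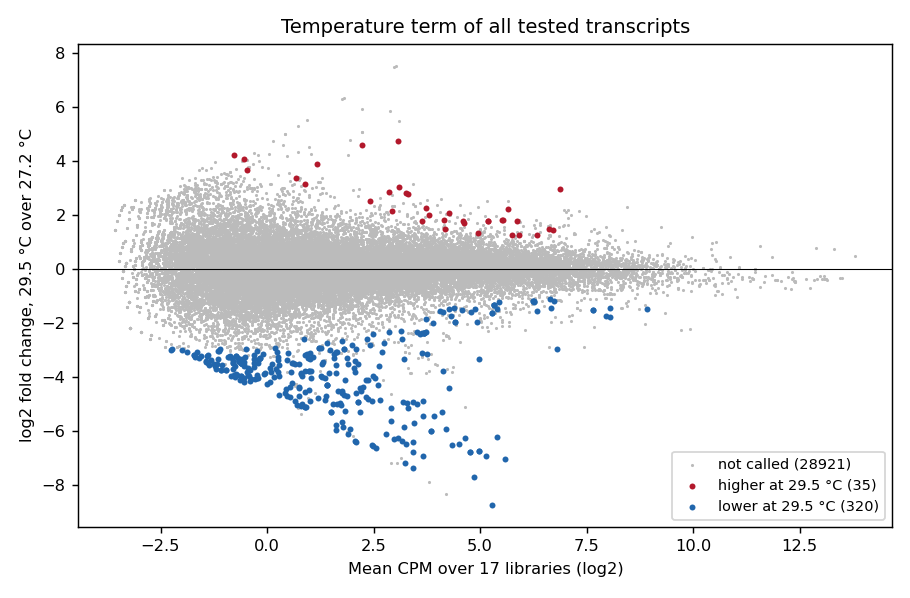
Each point is 1 of the 29276 tested transcripts, with its mean CPM over the 17 libraries on a log2 axis and the log2 fold change of 29.5 °C over 27.2 °C. The 35 transcripts called higher are red, and the 320 called lower, which lie mostly at low levels, are blue.

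The number of calls depended on single libraries. It was 147 without PO3, 154 without PO10, 180 without PO15 and 217 without PO2, and 416 without PO6. Whichever library was left out, 60 transcripts (6 higher and 54 lower) were called. DESeq2 called 32 of these 60. The 6 higher ones were DN73538_c1_g1_i6, DN72919_c0_g1_i1, DN75675_c0_g2_i1, DN70056_c0_g1_i1, DN70455_c0_g2_i2 and DN72197_c0_g1_i9, none of which has a protein name in the study's tables.

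Among the transcripts called higher, ranges that did not overlap between the temperatures were found in 2, both with almost no counts in the cooler libraries. A single count was 5.05 CPM in PO4 and 7.10 CPM in PO14, so that 0 counts there do not show absence. DN73538_c1_g1_i6 was counted in all 9 warm libraries, at 2.52 to 66.8 CPM (median 8.92), and in the 8 cooler libraries it lay between 0 and 1.71 CPM (median 0), with 2 counts in all. The warm and cooler ranges did not overlap. The pooled level was 19.6 times higher at 29.5 °C (exact binomial 95% interval 5.23 to 164, counting error only), and the adjusted p in edgeR was 0.0022. DN70056_c0_g1_i1, too, had counts in every warm library, at 0.598 to 27.8 CPM (median 6.06) in the warm libraries and 0 to 0.367 CPM (median 0) in the cooler ones. A single count, in PO10, made up its level at 27.2 °C, and the pooled level was 29.8 times higher at 29.5 °C (interval 5.15 to 1198, edgeR FDR = 0.0044). PO6, PO19 and PO1 had 1 count each, so that the gap between the ranges lay between 1 count in PO6 and 1 in PO10. In all, 5 transcripts of those tested (0.0171%) had no CPM value in common between the ranges of warm and cooler libraries. Besides these, DN68823_c0_g1_i1 was lower and called, at 0 to 46.7 CPM at 29.5 °C against 56.8 to 752 CPM at 27.2 °C (edgeR FDR = 0.038). DN72707_c0_g3_i2 and DN64934_c0_g1_i1 did not pass the test (edgeR FDR = 0.211 and 0.125).

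Other higher transcripts were expressed at both temperatures. DN72919_c0_g1_i1 lay between 42.0 and 111 CPM (median 59.7) at 29.5 °C and between 8.46 and 49.7 CPM (median 15.7) at 27.2 °C. Of the 9 warm libraries, 8 lay above every cooler one. Its log2 fold change was 1.82 ± 0.36 (SE, edgeR FDR = 0.0037), and every alternative processing in which it was tested kept the call. DN75675_c0_g2_i1 lay between 13.8 and 199 CPM (median 59.5) at 29.5 °C and between 11.9 and 30.7 CPM (median 16.7) at 27.2 °C. It rose by 2.21 ± 0.43 on the log2 scale (SE, FDR = 0.0041), and PO2 and PO15 held its highest levels, 199 and 162 CPM. DN70455_c0_g2_i2 lay between 10.2 and 58.5 CPM (median 37.3) in warm libraries and between 5.05 and 21.8 CPM (median 9.87) in cooler ones, and rose by 1.78 ± 0.40 (SE, FDR = 0.010). Library PO15 gave the highest level of 14 of the 35 higher transcripts.

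**Figure D2:**
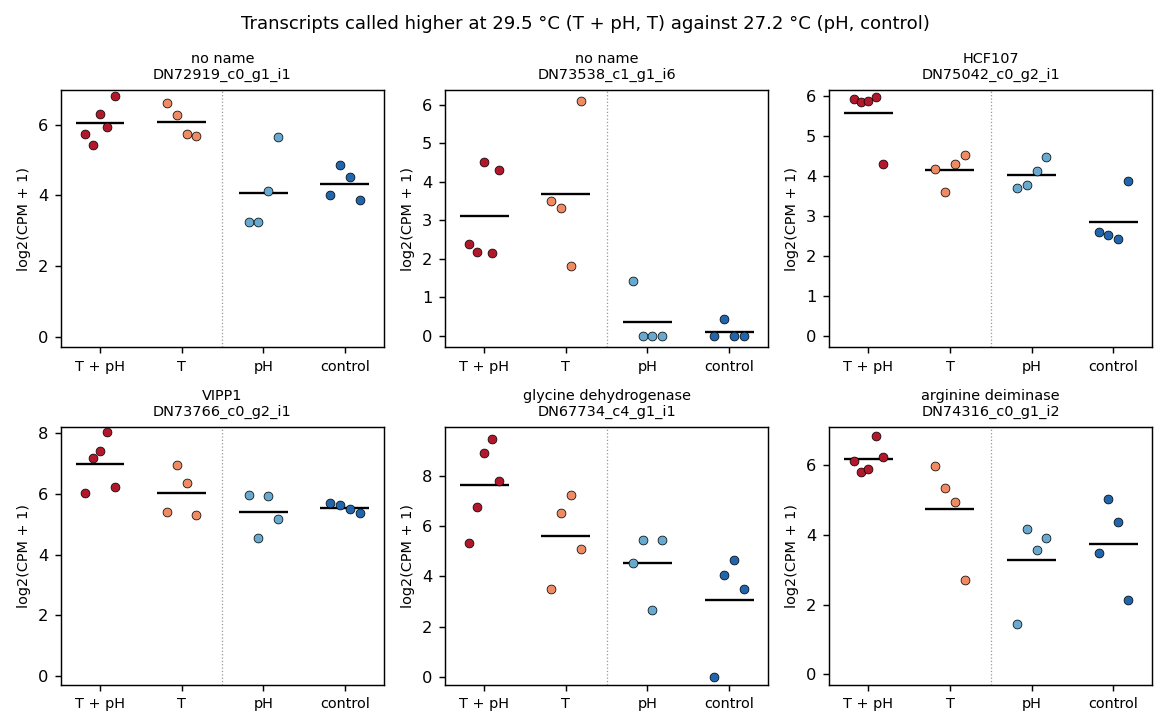
Levels of 6 transcripts called higher at 29.5 °C, as log2(CPM + 1), with 1 point for each library and a bar at the mean of a treatment. The warm treatments, T + pH and T, stand left of the dotted line and the cooler ones, pH and control, right of it, and for DN73538_c1_g1_i6 the sides do not overlap.

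Among transcripts with a known function, the list of the photosynthetic membrane, pigments and plastid gene expression held 12. Of these, 2 were called higher and none lower, beside 0.120% and 1.09% of all tested. A positive log2 fold change was found in 11 (median over the list 1.26, against 0.03 over all tested). The members of this list and of the lists that follow were taken from the study's tables, which had been selected on these libraries. Neither their direction nor their p-values are therefore independent evidence. HCF107 (DN75042_c0_g2_i1), an RNA-binding protein that in Arabidopsis stabilizes the plastid transcript of a photosystem II subunit, lay between 11.2 and 62.6 CPM (median 22.3) at 29.5 °C and between 4.39 and 21.3 CPM (median 12.3) at 27.2 °C. The ranges overlapped, with 5 of 9 warm libraries above every cooler one. It rose by 1.70 ± 0.39 on the log2 scale (SE, edgeR FDR = 0.014), by 1.94 at pH 7.7 and by 1.37 at pH 8.0, and was not called without PO3 (FDR = 0.059). By treatment it averaged 51.3 ± 18.4 CPM in T + pH (SD, n = 5) and 17.4 ± 4.62 CPM in T (n = 4), beside 15.6 ± 4.28 CPM in pH and 6.95 ± 4.43 CPM in the control (n = 4 each).

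VIPP1 (DN73766_c0_g2_i1), which maintains thylakoid membranes, lay between 39.0 and 262 CPM (median 81.7) at 29.5 °C and between 22.2 and 61.4 CPM (median 46.3) at 27.2 °C. Its log2 fold change of 1.24 ± 0.34 (SE) passed the edgeR test by a narrow margin (FDR = 0.0499), and it was called in 4 of the 17 fits that left out 1 library (FDR up to 0.203). DESeq2 gave an adjusted p of 0.0502. The gamma chain of R-phycoerythrin (DN70577_c1_g3_i1), the linker that holds this pigment protein in the phycobilisome, was 1.29 ± 0.38 higher without passing the test (edgeR FDR = 0.086, DESeq2 0.0145).

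Photorespiration and glycine metabolism had 1 of 6 transcripts called higher and none lower, beside 0.120% and 1.09% of all transcripts tested. All 6 had positive log2 fold changes (1.02 to 2.95, median 1.80) and an unadjusted p below 0.05, which 10.8% of all tested had. Because the list was selected on these libraries, these shares do not show an enrichment. Both transcripts of glycine dehydrogenase, the decarboxylating subunit of the mitochondrial glycine cleavage system, had the largest values of the list. DN67734_c4_g1_i1 lay between 10.3 and 703 CPM (median 106) at 29.5 °C and between 0 and 42.6 CPM (median 18.97) at 27.2 °C. It was 2.95 ± 0.68 higher on the log2 scale (SE, edgeR FDR = 0.048, DESeq2 5.4e-04), with 6 of 9 warm libraries above every cooler one. PO15, PO12 and PO19, all from T + pH, had 703, 472 and 223 CPM, and the edgeR call held in 5 of the 17 fits without 1 library (FDR up to 0.121). DN77029_c1_g1_i1 averaged 84.1 ± 104 CPM (SD, n = 9) at 29.5 °C and 11.8 ± 8.62 CPM (SD, n = 8) at 27.2 °C, and missed the threshold (log2 fold change of 2.53 ± 0.65, edgeR FDR = 0.081, DESeq2 0.0131). Phosphoglycolate phosphatase (DN74340_c0_g2_i1), the entry enzyme of photorespiration, was 1.02 ± 0.36 higher and was not called (FDR = 0.179).

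The Calvin cycle and glycolysis showed no call among 9 transcripts in edgeR or DESeq2. Of them, 6 had an unadjusted p below 0.05, which 10.8% of all tested had. All 9 log2 fold changes were positive (0.06 to 1.62, median 1.04), in a list selected on these libraries. Their medians were 2.52 at pH 7.7 and -0.51 at pH 8.0. Phosphoglycerate kinase (DN75667_c0_g1_i2) was 1.62 ± 0.64 higher over both levels (SE, edgeR FDR = 0.318), phosphoribulokinase (DN72649_c1_g2_i2), which regenerates the acceptor of CO2, 0.84 ± 0.38 higher (FDR = 0.379), and the plastid triose-phosphate translocator (DN75856_c1_g1_i1) 0.85 ± 0.39 higher (FDR = 0.416). The phosphoribulokinase values were 1.95 at pH 7.7 and -0.51 at pH 8.0, and the difference between the levels was not called (edgeR interaction, unadjusted p = 3.4e-04). The pentose phosphate pathway and NADP list had no call among 5 transcripts. In it, transaldolase (DN69532_c0_g1_i2) had a log2 fold change of -1.18 ± 0.33 (FDR = 0.060) and glucose-6-phosphate dehydrogenase (DN74965_c0_g4_i1) had a log2 fold change of -1.28 ± 0.39 (FDR = 0.118), whereas that of a transcript with the NAD-binding domain of phosphogluconate dehydrogenase (DN70344_c0_g1_i2) was 1.20 ± 0.37 (FDR = 0.112).

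Storage glucan and carbohydrate transcripts went both ways, with 1 of 8 called higher and 1 called lower, beside 0.120% and 1.09% of all tested. Malto-oligosyltrehalose trehalohydrolase, which in bacteria releases trehalose from glucan chains, was called higher for DN74466_c0_g2_i1, at 17.2 to 388 CPM (median 100) at 29.5 °C and 33.0 to 99.4 CPM (median 42.9) at 27.2 °C. Its log2 fold change was 1.43 ± 0.38 (SE, edgeR FDR = 0.042, DESeq2 0.0714), and the call held in 5 of 17 fits without 1 library (FDR up to 0.131). A second locus of this enzyme, DN74466_c0_g1_i1, had a log2 fold change of 1.80 ± 0.55 and was not called (FDR = 0.109).

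Cellulose synthase (DN70292_c0_g2_i1) had the most negative fitted log2 fold change among the called transcripts with a name. It had between 0 and 5.57 CPM (median 0.330) at 29.5 °C, with 8 counts in all, and between 0 and 490 CPM (median 19.4) at 27.2 °C, with 237 counts. The spread at 27.2 °C was wide: PO14 had 490 CPM, PO3 113, PO11 54.5, PO10 29.3 and PO5 9.52, and the other 3 control libraries lay between 0 and 5.05, within the warm range. The fitted log2 fold change was -6.21 ± 1.23 (SE, edgeR FDR = 0.023, DESeq2 3.6e-04), with -8.17 at pH 7.7 and -2.99 at pH 8.0. It was not called without PO2, PO3, PO10, PO12 or PO15 (FDR up to 0.073).

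Of the 15 transcripts tested in nitrogen and sulfur uptake and assimilation, 3 were called lower, all of them high affinity nitrate transporters, which bring nitrate into the cell at low external concentrations. The 2 called higher were isoforms of arginine deiminase, which splits arginine into citrulline and ammonium. The list came from the study's tables, selected on these libraries. Among all transcripts tested, 1.09% were called lower and 0.120% higher. The nitrate transporter DN76248_c0_g5_i1 lay between 0 and 17.6 CPM (median 5.48) at 29.5 °C and between 7.10 and 51.8 CPM (median 19.4) at 27.2 °C, and its log2 fold change was -1.84 ± 0.45 (SE, edgeR FDR = 0.021). DN68840_c0_g1_i4, the most abundant of them, lay between 0 and 104 CPM (median 35.0) at 29.5 °C and between 52.7 and 161 CPM (median 120) at 27.2 °C. Its log2 fold change was -1.55 ± 0.41 (FDR = 0.047), and by treatment it averaged 18.5 ± 12.9 CPM in T + pH (SD, n = 5), 85.0 ± 16.9 CPM in T (n = 4), 120 ± 27.8 CPM in pH and 116 ± 45.5 CPM in the control (n = 4 each). Within pH levels its log2 fold change was -2.65 at pH 7.7 and -0.45 at pH 8.0, and the difference was not called (edgeR interaction, unadjusted p = 0.0019). The third, DN76693_c1_g1_i2, averaged 8.13 ± 6.92 CPM in warm libraries (SD, n = 9) and 26.0 ± 17.4 CPM in cooler ones (SD, n = 8, FDR = 0.048). Another nitrate transporter, DN76693_c0_g2_i2, had a log2 fold change of -1.36 ± 0.41 and was not called (FDR = 0.118). In the 17 fits without 1 library, DN76248_c0_g5_i1 was called in 13 (FDR up to 0.213), DN68840_c0_g1_i4 in 6 (up to 0.133) and DN76693_c1_g1_i2 in 4 (up to 0.265).

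Arginine deiminase (DN74316_c0_g1_i2) lay between 5.57 and 113 CPM (median 58.1) at 29.5 °C and between 1.71 and 31.9 CPM (median 12.5) at 27.2 °C, with 7 of 9 warm libraries above every cooler one. It rose by 1.78 ± 0.43 on the log2 scale (SE, edgeR FDR = 0.021, DESeq2 0.0200), and the edgeR FDR was 0.073 without PO3. Isoform DN74316_c0_g1_i5 had the same counts in every library, so that the pair is a single observation.

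Lipid metabolism had no transcript called higher and 3 of 14 called lower, beside 0.120% and 1.09% of all transcripts tested. Acyl-coenzyme A oxidase (DN69349_c0_g1_i2), which starts the peroxisomal breakdown of fatty acids, lay between 18.6 and 213 CPM (median 92.5) at 29.5 °C and between 70.8 and 674 CPM (median 286) at 27.2 °C. Its log2 fold change was -1.52 ± 0.38 (SE, edgeR FDR = 0.033, DESeq2 0.0273), and isoform DN69349_c0_g1_i1 had nearly the same counts. That isoform was also called lower, so that the pair is close to a single observation. The call of DN69349_c0_g1_i2 held in 8 of 17 fits without 1 library (FDR up to 0.102). Lipoxygenase (DN75899_c0_g2_i3), which oxidizes polyunsaturated fatty acids, had 5 counts in the warm and 38 in the cooler libraries, of which 36 came from the pH treatment. Its log2 fold change was -4.67 at pH 7.7 and -0.18 at pH 8.0, and -3.52 ± 0.79 over both (edgeR FDR = 0.011, DESeq2 0.0842, FDR = 0.071 without PO15). The 11 other transcripts of the list, among them the fatty acid desaturases and acyltransferases, all had positive log2 fold changes, 0.52 to 1.52, and none was called by edgeR, while DESeq2 called the long-chain fatty acid CoA ligase (DN74545_c0_g2_i1).

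Of 10 transcripts for chaperones, mitochondrial scaffolds and redox, 4 were called lower and none higher, and all 10 had negative log2 fold changes (median -1.02). Over all transcripts tested, 1.09% were called lower and the median was 0.03. This list, too, was selected on these libraries, so that the shared sign is not independent evidence. The assembly lists 3 isoforms of a stomatin or prohibitin family protein (DN74914_c0_g2_i1 and its isoforms i2 and i3), which had identical counts and are a single observation. It lay between 0 and 22.3 CPM (median 3.44) at 29.5 °C and between 0 and 70.8 CPM (median 18.96) at 27.2 °C. Its log2 fold change was -2.37 ± 0.53 (SE, edgeR FDR = 0.016), and it was not called without PO3 or PO10 (FDR up to 0.102). Peroxidase A2 (DN72114_c1_g1_i2), an enzyme that uses hydrogen peroxide, had 3 counts in the warm libraries, all in PO15. In the cooler ones it had 201, of which PO10 gave 169 and PO3 21. Its pooled level was 130 times lower at 29.5 °C (exact binomial 95% interval 43.9 to 637, counting error only, edgeR FDR = 0.010), and it was not called without PO15 (FDR = 0.271). Vanadium-dependent bromoperoxidase (DN69905_c0_g1_i1), which makes brominated compounds in red algae, averaged 49.1 ± 27.7 CPM in warm and 112 ± 54.3 CPM in cooler libraries and missed the threshold (log2 fold change of -1.23 ± 0.34, FDR = 0.052). Both dnaJ chaperone isoforms had log2 fold changes of -0.66, and ferritin-3 (DN73238_c10_g1_i1), an iron store, had 4276 ± 2245 CPM at 29.5 °C and 5418 ± 3687 CPM at 27.2 °C (FDR = 0.851).

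Neither alternative oxidase was called, with log2 fold changes of -1.69 ± 0.55 for the plastid type (DN67878_c0_g1_i3, edgeR FDR = 0.154) and -1.31 ± 0.41 for the mitochondrial one (DN71368_c0_g1_i3, FDR = 0.142). None of the 8 transcripts for the transport of inorganic carbon and metabolites was called either, by edgeR or DESeq2. Of them, 4 had an unadjusted p below 0.05, which 10.8% of all tested had. The largest values were 1.92 ± 0.64 for an ABC transporter (DN73638_c0_g1_i4, FDR = 0.168) and -1.58 ± 0.78 for an alpha carbonic anhydrase (DN71040_c0_g2_i2, FDR = 0.49). The sodium/pyruvate cotransporter BASS2 (DN69886_c0_g2_i1) and the succinate-acetate/proton symporter (DN75257_c0_g3_i1) had 1.15 ± 0.41 (FDR = 0.194) and -1.46 ± 0.60 (FDR = 0.359).

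The 3 transcripts with a bacterial match, whose origin was not tested, were not called by edgeR and did not share a direction. Elongation factor Tu (DN72089_c0_g3_i2) lay between 0 and 552 CPM at 29.5 °C and between 454 and 801 CPM at 27.2 °C (log2 fold change of -1.34 ± 0.37, SE, edgeR FDR = 0.055, DESeq2 0.0182). Elongation factor G (DN72578_c0_g5_i1) had the opposite sign, 1.03 ± 0.35 (FDR = 0.153), and ribosomal protein L14 (DN69229_c0_g1_i1) had -0.80 ± 0.33 (FDR = 0.312).

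Other named transcripts that were called matched proteins of other organisms in the study's tables, and such matches give no more than a family. Higher at 29.5 °C were 2 zinc finger proteins (DN74152_c0_g1_i4, log2 fold change of 2.25 ± 0.55, and DN70500_c0_g1_i1, 1.24 ± 0.32), a zinc metalloprotease (DN76335_c0_g2_i1, 1.82 ± 0.46), a match to GMP synthase (DN71816_c0_g1_i2, 2.08 ± 0.51) and a glycosyltransferase (DN72515_c1_g2_i2, 1.98 ± 0.52), with edgeR FDR between 0.021 and 0.0385. Lower were a match to prostaglandin G/H synthase (DN75032_c2_g1_i1, -1.75 ± 0.41), a Myb-like protein (DN68491_c0_g1_i1, -1.77 ± 0.40), a profilin, which binds actin (DN67817_c0_g1_i2, -1.96 ± 0.47), an epimerase of mannuronate polymers with 2 isoforms (DN67122_c0_g1_i2, -1.62 ± 0.37) and a DNA damage-binding protein (DN75145_c0_g1_i1, -1.12 ± 0.31), with FDR between 0.015 and 0.0497. Each of these 10 lost its call without at least 1 library, in from 1 fit (DN68491_c0_g1_i1 without PO19, FDR = 0.093) to 13 of the 17 (DN75145_c0_g1_i1, FDR up to 0.261). The Myb-like transcript averaged 37.8 ± 25.1 CPM in T + pH (SD, n = 5), 297 ± 177 CPM in T, 246 ± 45.6 CPM in pH and 536 ± 319 CPM in the control (n = 4 each).

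Of the 7 transcripts that the study had chosen for RT-qPCR, DN71939_c0_g6_i1 was called for temperature. The study's primer table lists it as acetyl-CoA and its protein match is a bacterial dehydrogenase of inositol, so that no function is given to it here. Its primers are printed because it is the transcript of the RT-qPCR set that was called for temperature, with the bases in lower case and 5′ to 3′.
DN71939_c0_g6_i1 forward: actccaacttcaaacgtgcg
DN71939_c0_g6_i1 reverse: atccacattcacagcaccgt
The transcript lay between 11.1 and 92.0 CPM (median 36.5) at 29.5 °C and between 10.2 and 35.5 CPM (median 15.3) at 27.2 °C. Of the 9 warm libraries, 5 lay above every cooler one. Its log2 fold change was 1.33 ± 0.37 (SE, edgeR FDR = 0.0499, DESeq2 0.0087), and the edgeR call held in 3 of 17 fits without 1 library (FDR up to 0.191). The other 6 had edgeR FDR of 0.612 or more. The housekeeping candidate beta-tubulin (DN76782_c6_g1_i1) had 16 counts in the warm and 3 in the cooler libraries, too few to compare.

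Most of the 320 lower transcripts shared a pattern of detection that the temperature term does not show. At 27.2 °C, 310 of them had a count in PO10, 290 in PO3, 234 in PO14, 227 in PO5 and 162 in PO11. In PO3 these were 90.6% of the 320, against 66.6% of all tested, and in PO14 73.1% against 41.8%. The shares in PO10 (96.9% against 92.5%), PO5 (70.9% against 75.7%) and PO11 (50.6% against 45.6%) were near those of all tested. In the remaining control libraries they were seldom counted: 125 in PO16 (39.1%, against 60.2% of all tested), 60 in PO4 and 56 in PO17. The shares of all tested in PO4 and PO17 were not computed. Their totals were 205975 and 257316 counts, against 2629626 in PO10 and 177249 in PO14. In the 9 warm libraries, between 30 and 126 had a count (median 71). The shares were 39.4% in PO15 and 38.8% in PO2, the deepest warm libraries, against 88.0% and 89.4% of all tested. How far depth shaped this pattern was not tested. For 181 of the 320 (56.6%), PO4, PO16 and PO17 held no count at all, compared with 27.2% of all transcripts tested, and 175 of the 320 (54.7%) had counts in PO10 as the single control library, compared with 22.7% of all tested. At pH 8.0, the difference between the temperatures in these transcripts was therefore that between PO10 and the T libraries. Of the 181, 2 had a name and 18 were called by DESeq2.

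**Figure D3:**
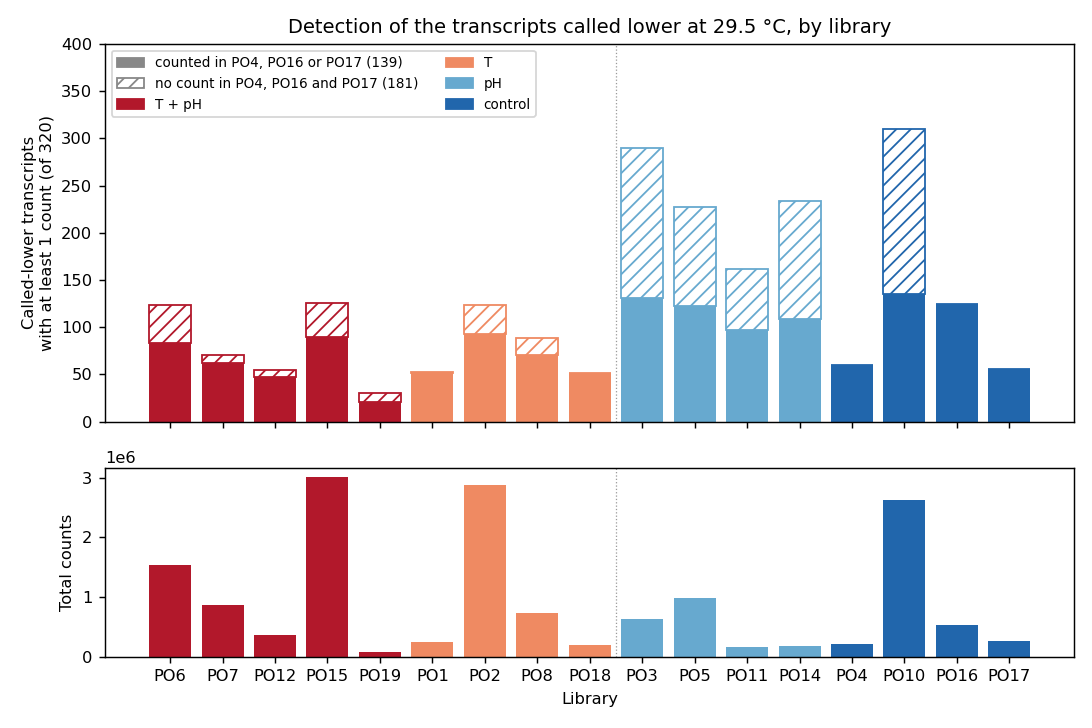
Upper bars give, for each library, how many of the 320 transcripts called lower at 29.5 °C had at least 1 count, hatched for the 181 with no count in PO4, PO16 and PO17, and lower bars give the total counts of the library. PO10 (310) and the pH libraries (162 to 290) hold most of them, and the 9 warm libraries and the other controls hold 126 or fewer. In PO10, PO5 and PO11 the share detected was near that of all transcripts tested.

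Summed over the 181 transcripts, the level was 12.8 to 167 CPM in T + pH, 0 to 28.9 CPM in T, 296 to 3891 CPM in pH, and 1871 CPM in PO10. The highest sum was that of PO14, which also had the highest level of 150 of the 320 lower transcripts, followed by PO10 with 55 and PO3 with 47. PO14 was a shallow library in which 1 count was 7.10 CPM. Its sum rested on 548 counts, against 5103 in PO10, and the 167 CPM in T + pH were 9 counts in PO19. How often PO14 was highest among all transcripts tested was not computed. For 116 of the 320 (36.2%), no warm library had a count, against 0.724% of all tested. These 116 passed the filter on total counts through the cooler libraries alone, so that their absence at 29.5 °C is a description. The sum over the other 139 lower transcripts was more even at 27.2 °C, between 4003 and 9363 CPM, compared with 557 to 2784 CPM at 29.5 °C, and DESeq2 called 71 of these 139.

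Most of the lower transcripts with the smallest p were without a count in PO4, PO16 and PO17. DN103343_c0_g1_i1 had 1 count in the 9 warm libraries, in PO6, or 0 to 0.598 CPM (median 0). At 27.2 °C it had 135 CPM in PO14, 40.9 in PO3, 16.3 in PO11, 11.6 in PO5 and 10.3 in PO10, and 0 in PO4, PO16 and PO17. The pooled level was 165 times lower at 29.5 °C (exact binomial 95% interval 28.9 to 6602, counting error only, edgeR FDR = 7.1e-07, DESeq2 0.0038). DN74013_c0_g1_i1, with 1 count in the warm libraries and 67 in the cooler, was 130 times lower (interval 22.6 to 5220, FDR = 2.6e-06). DN115192_c0_g1_i1 had no count in a warm library and 51 in PO3, PO5, PO11, PO14 and PO10, and was at least 33.1-fold lower against a floor of 3 counts over the 9 libraries (FDR = 2.1e-04). The same control libraries were at 0 for DN76337_c0_g1_i4, DN72910_c0_g1_i3 and DN74022_c1_g2_i1. These had 1, 1 and 3 counts in the warm libraries and 114, 86 and 46 in the cooler ones. The call of the first pair was lost without PO2 (FDR = 0.051 and 0.063). Both transcripts of a CCR4-NOT complex subunit, part of the complex that shortens poly(A) tails of mRNA, followed this pattern. DN71837_c1_g1_i9 had 7 counts in the warm libraries and 174 in the cooler ones, of which 134 were in PO10, and its log2 fold change was -4.94 ± 0.87 (SE, edgeR FDR = 0.0057, DESeq2 0.0042).

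**Figure D4:**
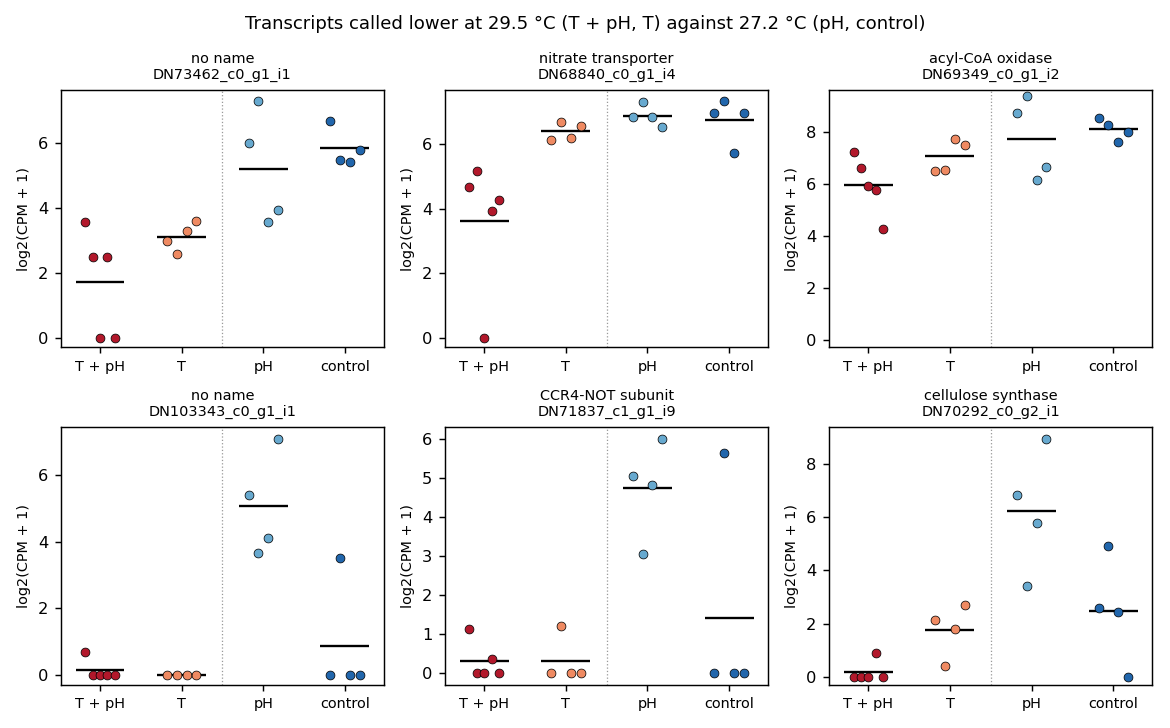
Levels of 6 transcripts called lower at 29.5 °C, as log2(CPM + 1), with 1 point for each library and a bar at the mean of a treatment, the warm treatments left of the dotted line. In the upper row all control libraries have counts, and in the lower row DN103343_c0_g1_i1 and the CCR4-NOT subunit are at 0 in 3 of 4 controls.

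DN73462_c0_g1_i1, also among the lower transcripts of smallest p, had counts in every cooler library. It lay between 0 and 11.1 CPM (median 4.96) at 29.5 °C and between 10.9 and 155 CPM (median 49.0) at 27.2 °C, with 7 of 8 cooler libraries above every warm one. Its log2 fold change was -3.32 ± 0.44 (SE, edgeR FDR = 1.6e-05, DESeq2 1.1e-06), with -3.57 at pH 7.7 and -3.01 at pH 8.0. It was called whichever library was left out and in every alternative in which it was tested. Of the 320 lower transcripts, 39 were counted in all 8 cooler libraries (12.2%, against 25.6% of all tested). The median log2 fold change of these 39 was -1.52, and DESeq2 called 33 of them.

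The temperature effect was also estimated within each pH level, in a model of the 4 treatments. At pH 7.7 (T + pH against pH), 144 transcripts were called by edgeR (0.492% of those tested), 22 higher and 122 lower, and 83 of them were among the 355. At pH 8.0 (T against control), edgeR called 0 transcripts, with 2027 at an unadjusted p below 0.05, and DESeq2 called 0, with 414. With only the libraries of the treatments compared in the fit, edgeR called 671 transcripts at pH 7.7 and 157 at pH 8.0 (48 higher and 109 lower). The absence of edgeR calls at pH 8.0 was thus not seen in this smaller fit. It also had its own filter (24522 transcripts tested), scaling and estimate of the spread, and which of these mattered was not tested. The interaction of temperature and pH gave 0 calls in edgeR, with 1682 at an unadjusted p below 0.05, and 1 in DESeq2, so that the calls at pH 7.7 alone do not show a difference between pH levels. All 35 higher transcripts had positive log2 fold changes at both levels (median 2.46 at pH 7.7 and 1.86 at pH 8.0). Of the 320 lower ones, 320 were negative at pH 7.7 (median -3.82) and 314 at pH 8.0 (median -3.63). Since both levels entered the test that chose these transcripts, those signs are a description. The count at pH 7.7 was 32 without PO15, 40 without PO3, 47 without PO12, 250 without PO6 and 261 without PO10, and that at pH 8.0 was 13 without PO8 and 2 without PO10. The deposited counts of PO12 sum to 372009, which is not the total that the study's table of libraries lists for it, and they were used as deposited. The pH term of the additive model had 38 calls (0.130%), of which 3 were also called for temperature, all lower at 29.5 °C.

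**Figure D5:**
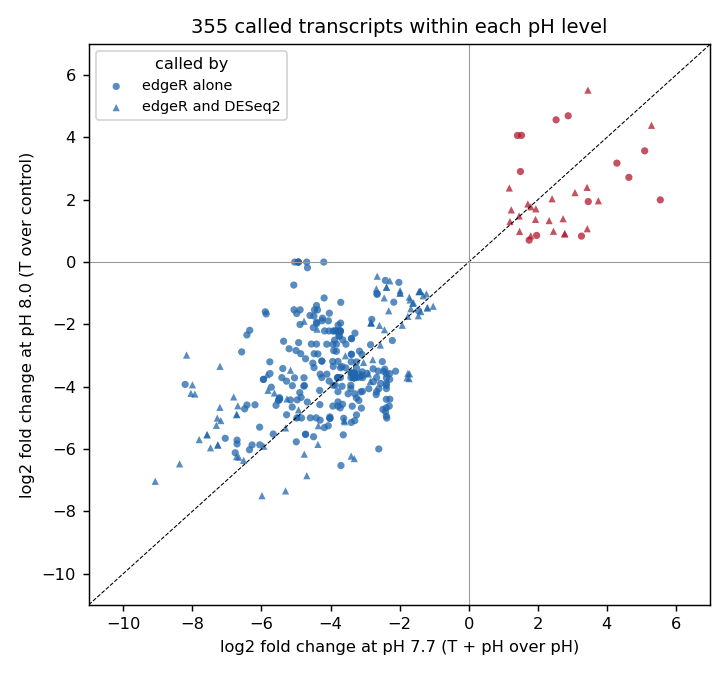
The log2 fold change of 29.5 °C over 27.2 °C within pH 7.7 (horizontal axis) and within pH 8.0 (vertical axis) for the 355 called transcripts, red for the 35 higher and blue for the 320 lower ones, with triangles for those that DESeq2 also called. The dashed line marks equal values, and all 35 higher transcripts lie in the upper right quadrant.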

How the data were processed

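RNA of pigmented tissue was counted by CEL-Seq2. The deposited counts are whole numbers per Trinity transcript, for which the authors trimmed and demultiplexed reads, mapped them with bowtie 2 to the P. onkodes assembly and counted UMIs. Whether a later correction for shared UMIs is in the values is not given in the sources used here, and no normalization had been applied. A column was assigned to a sample by its name, and its group came from the label.

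Transcripts with at least 5 counts in total over the 17 libraries were kept. TMM factors and the earlier quasi-likelihood form of edgeR 4.0.16 with robust estimation (R 4.3.3) were used, with temperature and pH level as terms, calls at FDR under 0.05 and a log2 fold change beyond 0.3 in either direction. On simulated counts with known changes, the false calls of this form outnumbered the changed transcripts it recovered, whereas DESeq2 1.42.0 recovered about as many with few false calls, so the calls of DESeq2 are given beside it. Library totals ranged between 78142 and 3012292 counts, and intervals on pooled counts cover counting error only. No pair of libraries of a treatment agreed within sampling noise. CPM used the TMM-scaled totals, and permutation tests used scipy 1.17.1.

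Named transcripts were up to 12 in each direction by smallest p with 1 per Trinity gene, every called one with a protein name in the study's tables, up to 3 of smallest p in each list and those of the RT-qPCR table. DN68823_c0_g1_i1, DN72707_c0_g3_i2, DN64934_c0_g1_i1 and DN74545_c0_g2_i1 fall outside this rule and were chosen after their values were seen. The members and lists were chosen with earlier results of these data known. Alternatives were DESeq2, limma-voom (limma 3.58.1), other edgeR settings, filters and covariates, thinned libraries, summed isoforms and each library left out. Upper-quartile scaling was not run because the upper quartile of PO19 was 0. The second species was not used here.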

Additional observations from a re-analysis of the deposited data

Results flagged for a closer look

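A library that stood apart from the rest of its temperature was found in 19 of 108 groups of CPM values examined. A single count among libraries at 0 always stands apart in this way, so that the number of such groups is not compared with chance. For 10 transcripts with few counts, 1 library was above 0, or far above the rest, at 29.5 °C. PO6 had 0.598 CPM of DN103343_c0_g1_i1, DN75006_c0_g2_i1 and DN71015_c0_g1_i1. PO2 had 0.330 CPM of DN76337_c0_g1_i4, DN72910_c0_g1_i3 and DN67468_c0_g1_i2. PO12 had 2.42 CPM of DN72835_c0_g1_i2 and of DN69219_c0_g2_i1. PO15 had 0.288 CPM of DN74013_c0_g1_i1 and 0.865 CPM of the peroxidase A2 transcript DN72114_c1_g1_i2. At 27.2 °C, PO3 had 1.71 CPM of DN73538_c1_g1_i6 (0 to 0.367 in the others) and PO10 had 0.367 CPM of DN70056_c0_g1_i1 (0 in the others).

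PO18, a T library, stood apart for several transcripts. It had the highest level of the lipoxygenase DN75899_c0_g2_i3 at 29.5 °C, 5.57 CPM (0 to 1.20 in the others). It had the lowest level of arginine deiminase, 5.57 CPM for both DN74316_c0_g1_i2 and DN74316_c0_g1_i5 (30.2 to 113 in the others). The zinc metalloprotease DN76335_c0_g2_i1 was at 0 CPM in PO18 (18.6 to 55.4 in the others) and at 0 CPM in PO14 at 27.2 °C (5.05 to 16.97 in the others). The glycosyltransferase DN72515_c1_g2_i2 was at 0 CPM in PO18 (10.3 to 64.6 in the others), and the nitrate transporter DN68840_c0_g1_i4 was at 0 CPM in PO12 (14.4 to 104 in the others).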

How the results depend on the processing

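The 355 calls for temperature became 168 with DESeq2, 188 with the current quasi-likelihood method, 24 with limma-voom (23 lower), 735 without a filter, 212 with at least 1 CPM in 4 libraries, 127 with thinned libraries and 142 with isoforms summed. With at least 5 counts in every library, edgeR called 0 of 957 transcripts, 71 of which had an unadjusted p below 0.05. The other edgeR alternatives gave 284 to 355 calls. The cause of these differences was not tested, and the stricter filters also tested fewer transcripts. Leaving out 1 library gave 147 to 416 calls for temperature, 0 to 13 at pH 8.0, 32 to 261 at pH 7.7 and 0 to 4 for the interaction. With only the libraries of both treatments in the fit, the count was 157 at pH 8.0 and 671 at pH 7.7. DESeq2 called 1 transcript for the interaction. Without TMM scaling, 4 transcripts had ranges that did not overlap, all of them higher at 29.5 °C. Some scarce RT-qPCR transcripts that were not called turned in direction: beta-tubulin DN76782_c6_g1_i1 to -0.021 (DESeq2), -0.23 (log10 total as covariate) and, leaving out 1 library, -0.18 (PO15) to 1.16, CP47 DN73640_c0_g1_i1 to 0.40 (DESeq2) and 1.60 (thinned), and heme oxygenase DN95780_c0_g1_i1 to -0.14 (limma-voom), and, leaving out 1 library, -0.64 (PO19) to 1.11, with -0.013 without PO18. Over all transcripts, the median log2 fold change was -0.17 with limma-voom and 0.16 without PO10. Of 53 named calls, 18 held whichever library was left out, and 6 of these also in every alternative that tested them. No paired analysis was possible because no fragment number is shared between treatments.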
